A study of Mus musculus with 13 samples.

Results

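The genes described here are Cdkn1a, which encodes the cyclin-dependent kinase inhibitor p21, and 9 other classic target genes of the transcription factor p53: Mdm2, Ccng1, Trp53inp1, Zmat3, Bax, Phlda3, Eda2r, Sesn2 and Gdf15. They were picked by symbol, with earlier results on these livers known, and make up 10 of the 22048 genes in the count table. Their differences between the groups are therefore descriptions: where the fit over all genes called one of them, the call is given beside the share of all genes called, with no p-value, and supports nothing here. RNA of 13 whole mouse livers was sequenced as stranded mRNA libraries. The 6 control livers (3 male, 3 female) were not depleted of hepatic stellate cells, the vitamin A storing, collagen producing cells that lie beside the liver sinusoids. The 4 depleted livers (1 male, 3 female) had lost those cells, and the 3 hepatectomised livers (2 male, 1 female) were not depleted and were taken 72 h after part of the liver had been cut out, an operation after which the remaining liver grows back. Strain, genotype, age, the method and timing of depletion, and whether controls had sham surgery or a mock depletion are not given in the sources used here. The study's title names hepatic stellate cells and hepatocyte proliferation, and the comparisons with control address how liver gene expression differs without stellate cells and during regrowth.

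p53 is kept at a low level in healthy cells because MDM2, itself the product of a p53 target, marks it for degradation. When DNA damage, oncogene activity or other stress stabilises p53, it binds response elements made of a pair of decamers near its targets and raises their transcription. The targets then arrest the cell cycle (p21), limit p53 itself (MDM2), promote apoptosis (BAX), or adjust redox state and nutrient signalling (sestrin 2). In the liver p21 is also known to be induced during regeneration, where it restrains hepatocyte entry into S phase, and several of these genes answer to other factors too, such as ATF4 for Sesn2 and Gdf15.

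The promoters of 8 of the 10 genes were matched in RefSeq (GRCm38.p6), as windows from 250 bases before to 50 after a gene's start; Trp53inp1 and Zmat3 were not matched. The consensus decamer of p53 was searched by that name as an exact match, and being a palindromic pattern it covers both strands. A pair was counted where 2 decamers lay at most 13 bases apart with at most 2 mismatches in 20 positions and with the core C and G of both decamers kept. Cdkn1a, Mdm2, Ccng1 and Bax held an exact decamer (4 of 8, 50%), against 9.55% of all 27025 genes with a window, and Cdkn1a, Ccng1 and Bax held a pair (3 of 8, 37.5%), against 4.71%. Counted by window, the shares over all 32851 windows of 300 bases were 8.36% and 4.09%. Of 30 matched genes among the further p53 targets described below, 23.3% held a decamer and 16.7% a pair. Genes known as p53 targets were chosen, so these shares describe the choice. The stretches around the matches are shown because they are where p53 could be read into the 4 genes, 5′ to 3′ on the gene's strand, with every decamer counted alone or in a pair in capitals.
Cdkn1a, chr17:29090866-29090978, plus strand: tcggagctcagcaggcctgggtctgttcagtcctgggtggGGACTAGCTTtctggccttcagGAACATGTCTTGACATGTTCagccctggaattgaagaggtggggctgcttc
Mdm2, chr10:117710895-117710984, minus strand: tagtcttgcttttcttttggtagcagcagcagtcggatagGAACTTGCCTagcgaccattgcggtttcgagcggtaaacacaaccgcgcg
Ccng1, chr11:40755422-40755526, minus strand: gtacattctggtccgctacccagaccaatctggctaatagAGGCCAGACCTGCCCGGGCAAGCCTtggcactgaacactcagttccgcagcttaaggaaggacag
Bax, chr7:45467039-45467148, minus strand: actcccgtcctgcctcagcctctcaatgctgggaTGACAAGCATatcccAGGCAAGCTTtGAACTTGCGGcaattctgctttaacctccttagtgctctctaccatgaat
Cdkn1a had 2 windows, each for a different start. In the first the pairs, which share a decamer, began 73 and 51 bases before that start, with 0 and 1 mismatches. The second window, chr17:29093519-29093818, held no decamer and no pair. Mdm2 held a single exact decamer and no pair. In Ccng1 and Bax each pair had 1 or 2 mismatches. No match was present in the windows of Phlda3, Gdf15, Eda2r and Sesn2, which says only that these letters are not in those windows.

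Total counts ran from 35360991 to 42784362 in the controls, from 37848305 to 51008737 in the depleted and from 39633635 to 46228433 in the hepatectomised livers. Levels are given as CPM, library-scaled counts adjusted by trimmed means of M values (TMM), on which 3 counts correspond to 0.0524 to 0.0900 CPM, covering counting error only. All 10 genes passed the filter on low counts. The summed level of 6 stellate cell markers (Lrat, Des, Reln, Colec10, Dcn, Rgs5) was 188 to 541 CPM in the controls, 238 to 408 in the hepatectomised livers and 1.76, 3.20, 4.37 and 43.6 in depleted replicates 3, 2, 1 and 4, so replicate 4 kept more stellate cell RNA than the others. In whole liver, fewer cells of a type and less RNA per cell cannot be told apart. The 6 monocyte and neutrophil markers summed to 1.29 to 6.85 CPM in control, 202 to 548 in depleted and 17.8 to 32.4 in hepatectomised livers, and 5 T cell markers to 0.900 to 1.94, 25.7 to 70.2 and 0.589 to 1.596 CPM. The 5 Kupffer cell markers did not all lie the same way in depleted livers: Marco ranged from 206 to 417 CPM (control 1.44 to 18.2) and Timd4 from 34.4 to 63.3 (control 1.501 to 17.1), both called higher, Cd5l from 231 to 612 (control 20.9 to 185), Vsig4 from 13.1 to 29.1 (control 6.27 to 50.9) and Clec4f from 0.236 to 69.5 (control 20.3 to 165), and their sum was 50.5 to 435 CPM in control, 494 to 1191 in depleted and 56.1 to 631 in hepatectomised livers. The sums of B cell markers in the 3 groups were 1.89 to 3.70, 13.5 to 23.5 and 0.533 to 2.89 CPM, those of cholangiocyte markers 4.54 to 6.34, 4.80 to 15.7 and 12.3 to 18.0 CPM, and those of endothelial markers 63.7 to 292, 151 to 322 and 63.9 to 197 CPM. Sox9 made up 13.1 CPM of the highest cholangiocyte sum in depleted livers, that of replicate 3. Krt19 (0.557 to 1.31 CPM), Krt7 (0.356 to 0.803) and Epcam (0.918 to 1.71) overlapped their controls in depleted livers. Of the endothelial markers, Pecam1 ranged from 38.3 to 76.9 CPM in depleted livers, above its controls (4.98 to 30.5). Overlapping their controls were Lyve1 (17.7 to 51.3, control 1.53 to 23.0) and Stab2 (42.6 to 111, control 24.9 to 90.8). So were Kdr (25.0 to 70.6, control 11.8 to 84.2) and Clec4g (27.5 to 40.8, control 20.5 to 69.3). The sum of 5 hepatocyte markers was 63187 to 134630 CPM in control, 63806 to 162800 in depleted and 110630 to 167890 in hepatectomised livers. The part of these other cells in the values below was not tested.

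Every one of the 10 genes had a higher fitted mean in both treated groups than in the controls, by up to 72.2-fold, with signs that turned under other settings for Sesn2 in hepatectomised livers (log2 -0.06 with scaling to library size alone and -0.09 without hepatectomised replicate 3) and, without depleted replicate 4, for Phlda3 (-0.52) and Gdf15 (-0.06) in depleted livers. In depleted livers Cdkn1a, Trp53inp1 and Sesn2 (3 of 10) were called higher at an adjusted p under 0.05 and none lower, where 33.9% of all 13831 tested genes were called, 18.9% higher and 15% lower. In hepatectomised livers Cdkn1a, Mdm2, Bax, Phlda3, Trp53inp1 and Eda2r (6 of 10) were called higher and none lower, where 8.42% of all genes were called, 6.06% higher and 2.36% lower. CPM ranges lay wholly above those of the controls for Cdkn1a and Sesn2 in depleted livers (2 of 10; over all genes 28.4% did not overlap, 16.5% above and 11.9% below). In hepatectomised livers they did for the same 6 genes that were called (6 of 10; over all genes 13.7%, 7.41% above and 6.25% below). The median log2 fold change of the 10 genes was 0.48 in depleted and 1.40 in hepatectomised livers, and that of all tested genes was -0.03 and -0.02. Both comparisons use the same 6 controls. With scaling to library size alone, the median of all genes moved to -0.24 in the hepatectomised livers. The count called there was 4 of 10 (Cdkn1a, Phlda3, Trp53inp1 and Eda2r), where 626 of all 13831 genes were called higher. Without hepatectomised replicate 2 it was 3 of 10 (Cdkn1a, Trp53inp1 and Eda2r), where 401 of all 14096 genes were called higher. In depleted livers it was 2 of 10 without replicate 3, where Sesn2 was no longer called and 1786 of all 13730 genes were called higher. Among female livers only it was 1 of 10 (Cdkn1a), where 1834 of all 13444 genes were called higher. Cdkn1a, Trp53inp1 and Sesn2 were called without depleted replicate 4, where 2529 of all 13737 genes were called higher.

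**Figure D1:**
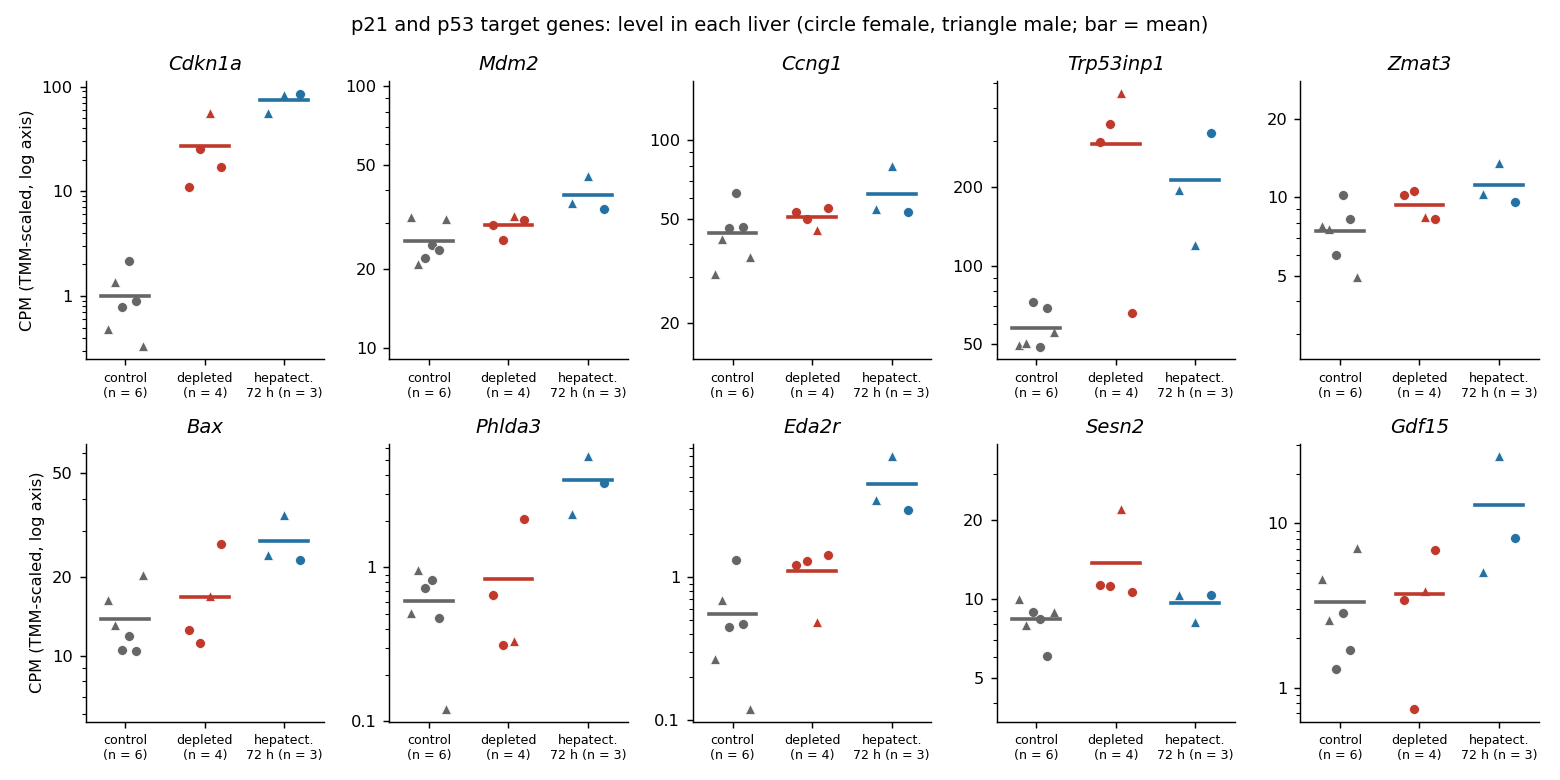
Level of each of the 10 genes in every liver, in TMM-scaled CPM on a log axis whose range differs by panel (circles female, triangles male, bar the group mean; 6 control, 4 depleted and 3 hepatectomised livers). Cdkn1a lies at or below 2.14 CPM in all controls and at 10.9 CPM or above in all treated livers, while Ccng1 and Gdf15 overlap between all groups.

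**Figure D2:**
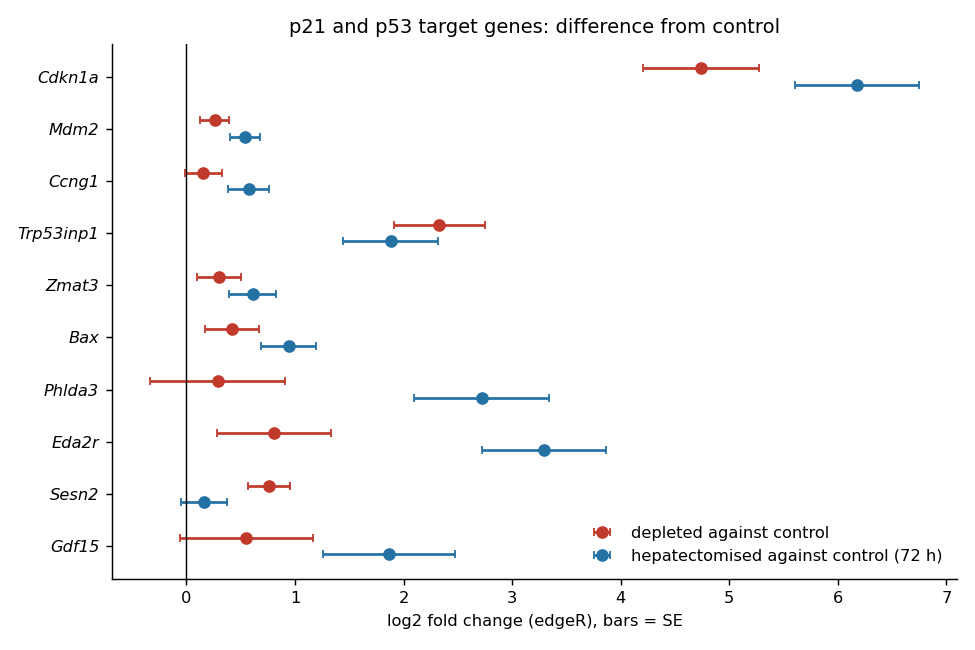
Log2 fold change against control for the 10 genes from the edgeR model with group and sex, with bars of 1 standard error (red depleted, blue hepatectomised). Cdkn1a stands at 4.74 and 6.17, and Eda2r, Phlda3 and Gdf15 have higher estimates in hepatectomised than in depleted livers.

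Cdkn1a (chromosome 17, 29090979 to 29100722, plus strand, protein coding) is the gene for p21, which binds cyclin and kinase complexes and holds cells before S phase. In the controls its level was 0.330 CPM at the lowest, 0.834 at the median and 2.14 at the highest. In depleted replicates 1 to 4 it was 10.9, 25.5, 55.6 and 17.2 CPM, and in hepatectomised replicates 1 to 3 it was 56.1, 83.2 and 85.5 CPM. The 3 groups did not overlap: every depleted liver lay above every control, and every hepatectomised liver above every depleted one, although depleted replicate 3, the male, came close to the lowest hepatectomised liver. The group means were 0.996 ± 0.663 (SD, n = 6), 27.3 ± 19.8 (SD, n = 4) and 74.9 ± 16.3 CPM (SD, n = 3). The log2 fold change against control was 4.74 ± 0.53 (SE), or 26.7-fold, in depleted livers and 6.17 ± 0.57, or 72.2-fold, in hepatectomised livers. Leaving out depleted replicate 3 gave 3.90 (14.9-fold) and leaving out depleted replicate 4 gave 4.91. Among female livers alone the depleted difference was 3.81, or 14.1-fold. The depleted livers lay below the hepatectomised by 2.71-fold (log2 -1.44 ± 0.56), a difference that was not called, and by more without depleted replicate 3 (log2 -2.46), where it was called. On GENCODE M21 an transcript model of unsettled status (AC167363.2) overlaps exons of Cdkn1a on the opposite strand, and the strand setting of the counting is not given in the sources used here.

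Mdm2 and Ccng1 encode proteins that act back on p53: MDM2 is its ubiquitin ligase, and cyclin G1 binds the phosphatase PP2A and lowers p53 activity through MDM2. Mdm2 (chromosome 10, 117688888 to 117710758, minus strand) stood at 20.9, 24.2 and 31.7 CPM at the lowest, median and highest control. It was 29.5, 25.8, 32.0 and 30.8 CPM in the 4 depleted livers and 35.7, 45.3 and 34.0 CPM in the 3 hepatectomised ones. All depleted livers lay in or just above the control range, and all hepatectomised livers lay above every control and every depleted liver. The differences were small: log2 0.26 ± 0.13 (1.20-fold) in depleted and 0.54 ± 0.14 (1.46-fold) in hepatectomised livers. Ccng1 (chromosome 11, 40748552 to 40755311, minus strand) ranged from 30.9 to 63.0 CPM in the controls, 45.5 to 54.9 in the depleted and 52.97 to 79.4 in the hepatectomised livers. Its ranges overlapped between all groups, with log2 fold changes of 0.16 ± 0.17 and 0.57 ± 0.19 (1.49-fold in hepatectomised livers). The estimate of Ccng1 in hepatectomised livers was 0.31 without replicate 2. Against hepatectomised livers, the depleted ones differed in Mdm2 by log2 -0.28 ± 0.16, which was 0.04 when libraries were scaled to their size alone.

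Trp53inp1 and Zmat3 encode a stress protein of autophagy and p53 signalling and a zinc finger RNA-binding protein. Trp53inp1 (chromosome 4, 11156431 to 11174379, plus strand) stood at 48.9, 53.2 and 72.5 CPM at the lowest, median and highest control. In depleted replicates 1 to 4 it was 297, 348, 456 and 65.9 CPM, and in the hepatectomised livers 195, 120 and 322 CPM. Depleted replicate 4, the liver with the most stellate cell RNA of its group, lay within the control range, and the other depleted livers and all hepatectomised livers lay above it. The log2 fold change was 2.33 ± 0.41 (5.03-fold) in depleted livers and 1.88 ± 0.44 (3.69-fold) in hepatectomised livers. Without depleted replicate 4 the first was 2.66 (6.32-fold), and without depleted replicate 3 it was 1.78 (3.43-fold). The call in hepatectomised livers was lost without control replicate 1 or hepatectomised replicate 3, the highest of its group, where the log2 fold change was 1.37. Depleted and hepatectomised livers overlapped, with a difference of 0.45 ± 0.50 that was -0.12 without depleted replicate 3. Zmat3 (chromosome 3, 32334792 to 32366014, minus strand) ranged from 4.95 to 10.2 CPM in control, 8.24 to 10.6 in depleted and 9.58 to 13.5 in hepatectomised livers, and all groups overlapped. Its log2 fold changes were 0.30 ± 0.20 and 0.61 ± 0.22 (1.53-fold in hepatectomised livers).

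Bax, Phlda3 and Eda2r belong to the death-promoting side of the response. BAX permeabilises the outer mitochondrial membrane, PHLDA3 is a pleckstrin homology protein that holds back AKT, and EDA2R is the tumour necrosis factor receptor family member that binds the A2 form of ectodysplasin. Bax (chromosome 7, 45461695 to 45466898, minus strand) stood at 10.5, 12.5 and 20.5 CPM at the lowest, median and highest control. It was 12.6, 11.2, 16.9 and 26.7 CPM in the depleted and 24.4, 34.7 and 23.2 CPM in the hepatectomised livers. Only depleted replicate 4 of the depleted livers exceeded the controls, whereas all hepatectomised livers did. The log2 fold changes were 0.42 ± 0.25 and 0.94 ± 0.26 (1.92-fold in hepatectomised livers), and without depleted replicate 4 the first was 0.07. The call of Bax in hepatectomised livers was lost without any 1 of control replicates 1 to 5 or hepatectomised replicates 2 and 3, where its log2 fold change stayed at 0.81 or above, and that of Mdm2 without control replicate 2, 3 or 5 or hepatectomised replicate 2 or 3, where it stayed at 0.45 or above. A same-strand predicted gene, Gm45808, overlaps exons of Bax in GENCODE M21 and is not among the rows of the table.

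Phlda3 (chromosome 1, 135766119 to 135769136, plus strand) was low in the controls, at 0.120, 0.620 and 0.964 CPM at the lowest, median and highest. It was 0.664, 0.314, 0.332 and 2.07 CPM in the depleted livers and 2.23, 5.28 and 3.57 CPM in the hepatectomised ones. Depleted replicates 1 to 3 lay inside the control range and replicate 4 above it, and every hepatectomised liver lay above all other livers. The log2 fold change was 0.29 ± 0.62 in depleted livers, with a sign that turned without replicate 4 (-0.52), and 2.72 ± 0.62 (6.59-fold) in hepatectomised livers. Without hepatectomised replicate 2 the latter was 2.22 and no longer called. Eda2r (chromosome X, 97333840 to 97377216, minus strand) stood at 0.120, 0.458 and 1.33 CPM at the lowest, median and highest control. It was 1.22, 1.30, 0.489 and 1.43 CPM in the depleted livers and 3.47, 6.96 and 2.94 CPM in the hepatectomised ones. The depleted livers overlapped the controls, and the hepatectomised livers exceeded every other liver. Its log2 fold changes were 0.81 ± 0.52 and 3.29 ± 0.57, the latter 9.79-fold and the largest of the 10 after Cdkn1a. Without hepatectomised replicate 2 it was 2.696.

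Sesn2 and Gdf15 encode sestrin 2, which restrains mTORC1 when leucine is short, and growth differentiation factor 15, a secreted stress cytokine. Sesn2 (chromosome 4, 132492032 to 132510501, minus strand) stood at 6.06, 8.65 and 10.02 CPM at the lowest, median and highest control. It was 11.3, 11.2, 22.01 and 10.6 CPM in the depleted livers and 10.3, 8.14 and 10.4 CPM in the hepatectomised ones. All depleted livers lay above every control and every hepatectomised liver, by little except in replicate 3, and the hepatectomised livers overlapped the controls. The log2 fold change was 0.76 ± 0.19 (1.70-fold) in depleted livers, and 0.45 without replicate 3, where it was no longer called. In hepatectomised livers it was 0.16 ± 0.21, with opposite signs under other settings (-0.06 with scaling to library size, -0.09 without hepatectomised replicate 3). Gdf15 (chromosome 8, 70629393 to 70632456, minus strand) varied widely within groups: 1.30 to 7.02 CPM in control, 0.739 to 6.91 in depleted and 5.06 to 25.5 in hepatectomised livers. All groups overlapped, hepatectomised replicate 2 was the highest liver, and the log2 fold changes were 0.55 ± 0.61 and 1.87 ± 0.60 (3.64-fold). Without depleted replicate 4 the first was -0.06, and without hepatectomised replicate 2 the second was 1.17.

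When the depleted livers were set directly against the hepatectomised ones, Phlda3 (log2 -2.43 ± 0.75, 5.39-fold lower) and Eda2r (-2.49 ± 0.67, 5.60-fold lower) were called lower and none of the 10 genes higher. Over all genes 23.4% were called, 10.1% lower and 13.3% higher. Ranges did not overlap for Cdkn1a, Mdm2, Phlda3 and Eda2r (lower) and for Sesn2 (higher), against 34% over all genes, 15.9% lower and 18.1% higher. Both calls were lost when hepatectomised replicate 2 was left out and when only the 2 groups compared entered the fit. Other genes were called lower when 1 library was left out: Cdkn1a without depleted replicate 3, Bax without depleted replicate 4 and Ccng1 without hepatectomised replicate 3. With scaling to library size alone Sesn2 was called higher and Phlda3 was not called. The call of Phlda3 was also lost without depleted replicate 1, 2 or 3 or hepatectomised replicate 3, and that of Eda2r without depleted replicate 3. The highest liver of the hepatectomised group was replicate 2 for 7 of the 10 genes and replicate 3 for Cdkn1a, Trp53inp1 and Sesn2. Hepatectomised replicate 2 also had the lowest summed markers of its group for Kupffer cells (56.1 CPM, against 631 and 232 in replicates 1 and 3), endothelial cells (63.9, against 197 and 149), stellate cells (238, against 368 and 408) and hepatocytes (110630, against 150420 and 167890), and their part in its values was not tested. In the depleted group replicate 3 was highest for Cdkn1a, Mdm2, Trp53inp1 and Sesn2, replicate 4 for Ccng1, Bax, Phlda3, Gdf15 and Eda2r, and replicate 2 for Zmat3.

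Per gene length (RPKM), Cdkn1a moved from near the bottom of the order to its top. In the controls the mean levels ran from Bax (15.9 RPKM), Ccng1 (12.6), Trp53inp1 (8.92) and Mdm2 (5.06) through Sesn2 (2.41), Gdf15 (1.80) and Zmat3 (0.653) to Cdkn1a (0.448), Phlda3 (0.387) and Eda2r (0.0940). Neighbours in that order overlapped in range, apart from Trp53inp1 over Mdm2 and Mdm2 over Sesn2. In the depleted livers Trp53inp1 came first at 45.1 RPKM and Cdkn1a rank 4 at 12.3, and all neighbours overlapped. In the hepatectomised livers Cdkn1a (33.7 RPKM), Trp53inp1 (32.8) and Bax (31.6) led with overlapping ranges. The ranges of Cdkn1a and Bax lay above that of Ccng1 (17.7), that of Trp53inp1 overlapped it, and Ccng1 lay above Mdm2 (7.56). Eda2r remained last at 0.757 RPKM.

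**Figure D3:**
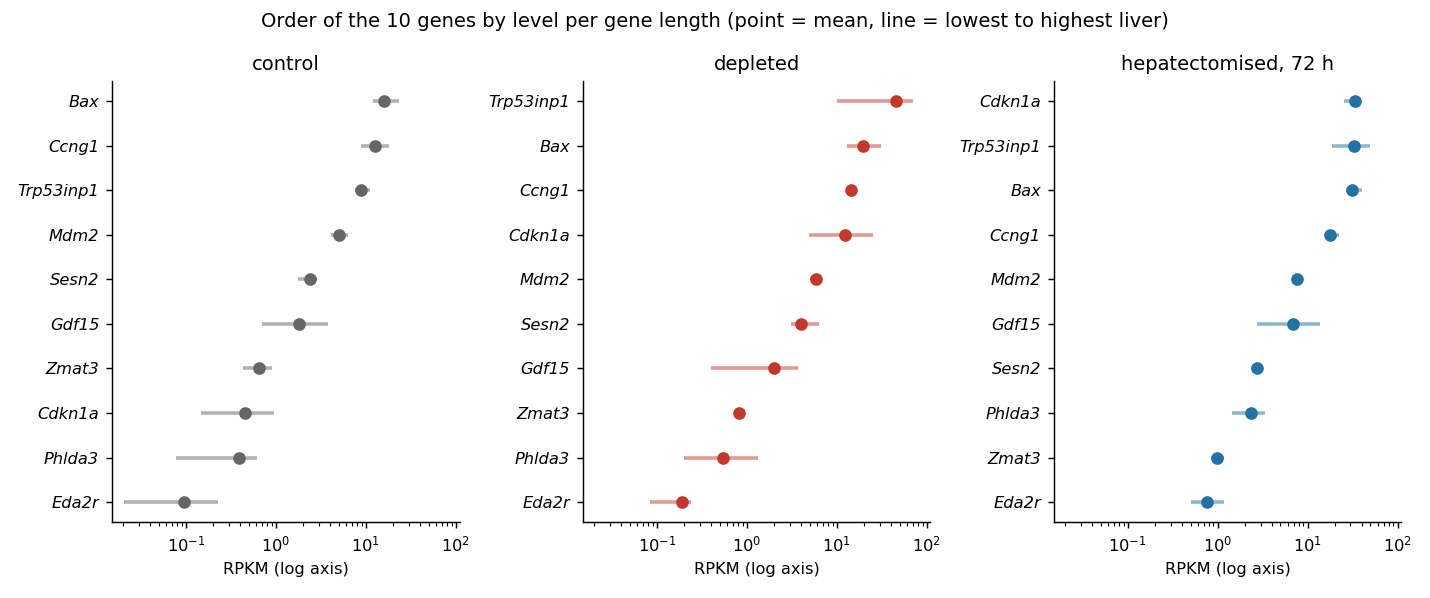
Mean level per gene length (RPKM, log axis) of the 10 genes in each group, sorted by mean, with a line from the lowest to the highest liver. Cdkn1a is rank 8 in controls, rank 4 in depleted and rank 1 in hepatectomised livers.

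By the root mean square difference of centred log2 CPM over the 13 livers, among 10768 genes of sufficient level, the 5 genes whose pattern lay nearest to Cdkn1a were Gadd45g (0.997), Orm2 (1.08), Mt1 (1.17), Top2a (1.30) and Lcn2 (1.30). Gadd45g encodes a growth arrest and DNA damage protein, Orm2 and Lcn2 acute phase proteins, Mt1 a metallothionein and Top2a the topoisomerase of dividing cells. Gadd45g ranged from 0.810 to 10.1 CPM in control, 13.1 to 64.9 in depleted and 44.2 to 132 in hepatectomised livers. Phlda3 and Eda2r were too low for this comparison. Of the remaining 7 p53 target genes, Trp53inp1 came nearest, with a difference of 2.08 at rank 113, and the rest lay at ranks 870 to 1423. This measure counts the size of a change as well as its shape, so genes that changed little lie far from Cdkn1a.

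A comparison that did not enter the choice of the genes was that of male with female controls, 3 against 3. None of the 10 genes was called by edgeR's quasi-likelihood test (Benjamini-Hochberg adjusted p from 0.275 to 0.819), where 0.738% of 13005 tested genes were, and DESeq2 called 0 of 10 as well. At an unadjusted p under 0.05 there were 3 of 10, beside 13.2% of all genes: Ccng1 was lower in males (log2 -0.52 ± 0.18), and Bax (0.60 ± 0.20) and Gdf15 (1.27 ± 0.44) were higher. Male and female ranges did not overlap for Ccng1 and Bax, beside 20.8% of all genes. The labels do not say beyond separate samples how the livers were obtained, so p-values measure the spread between these samples. The male to female difference of Cdkn1a was -0.80 ± 0.63.

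The other genes, here and in the lists that follow, were picked by name with earlier results on these livers known. Their counts beside the share of all genes are therefore descriptions too. Of 39 further p53 targets, 33 were tested. In depleted livers 8 rose, 5 fell and 20 did not pass, with a median log2 fold change of 0.18; as shares these were 24.2% and 15.2%, beside 18.9% and 15% over all genes. The largest rises were those of Dram1, a lysosomal regulator of autophagy (4.44 ± 0.49; 0.150 to 1.94 CPM in control and 12.6 to 32.2 in depleted livers), Ddit4, an mTORC1 inhibitor (3.72 ± 0.42), and Pmaip1, the BH3-only protein Noxa (3.17 ± 0.38). Btg2, an antiproliferative gene, and Fas, a death receptor named after its values were seen, rose by 2.20 ± 0.45 and 1.06 ± 0.21. The falls were led by the kinase gene Plk2 (-1.10 ± 0.26), the thiamine transporter gene Slc19a2 (-0.91 ± 0.23) and the glutaminase gene Gls2 (-0.76 ± 0.24). The call of Gls2 was lost without control replicate 3 or 5 or depleted replicate 1, 3 or 4 (adjusted p 0.0527 to 0.0961 in edgeR). The count that fell was 2 without depleted replicate 3, 10 without depleted replicate 4 and 1 among female livers.

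In hepatectomised livers 8 of the 33 other targets rose (24.2%, beside 6.06% over all genes), 1 fell (3.03%, beside 2.36%) and 24 did not pass, with a median of 0.40. Psrc1, a spindle protein gene (4.25 ± 0.85; 0 to 0.272 CPM in control and 1.17 to 3.59 in hepatectomised livers), Btg2 (3.10 ± 0.49) and Ddit4 (2.75 ± 0.44) rose most, and Fas rose by 1.36 ± 0.23. Xpc, a damage recognition gene of nucleotide excision repair, fell (-0.50 ± 0.12), a call lost without control replicate 1 or 2 or hepatectomised replicate 1 or 2 (adjusted p 0.0587 to 0.112 in edgeR). Scaled to library size alone, 5 fell. Between the treated groups, 6 were higher in depleted livers (18.2%, beside 13.3% over all genes) and 4 lower (12.1%, beside 10.1%). The count that was lower was 2 without depleted replicate 1 or 3. Pmaip1 (3.66 ± 0.53), Dram1 (3.60 ± 0.65) and Apaf1 (1.31 ± 0.42), the scaffold of the apoptosome, were higher. Ak1, an adenylate kinase gene (-2.80 ± 0.81), Perp, a desmosome gene (-0.78 ± 0.15), and Rps27l, a ribosomal protein gene (-0.67 ± 0.22), were lower. Dram1 and Pmaip1 thus passed the test of the difference itself, and their hepatectomised ranges, 1.29 to 2.97 and 0.470 to 0.649 CPM, overlapped those of the controls. The calls of Apaf1, Ak1 and Rps27l between the treated groups were lost in 7, 3 and 10 of the 13 fits that left out 1 library each, with depleted replicate 3 and hepatectomised replicate 3 among them for each gene.

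**Figure D4:**
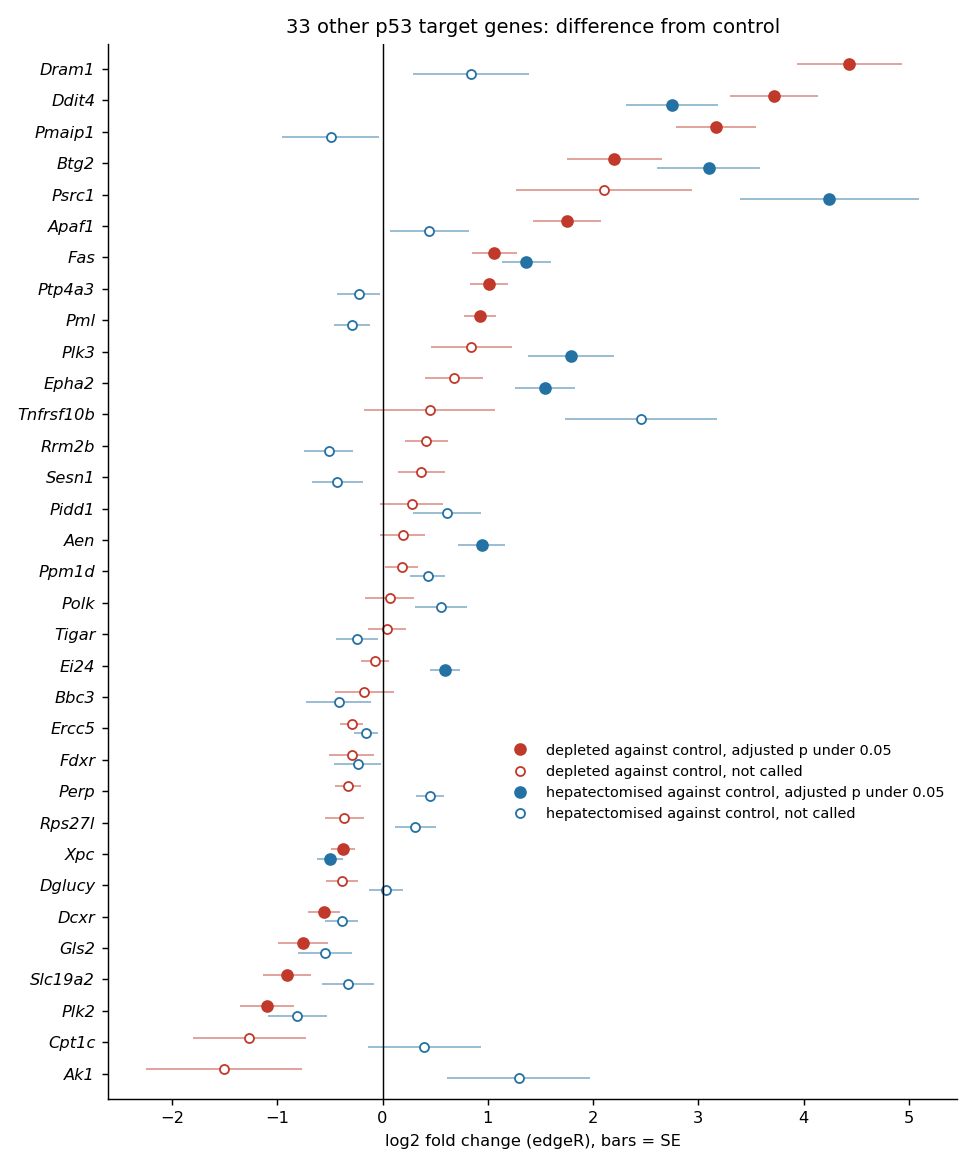
Log2 fold change against control with 1 standard error for the 33 other p53 target genes tested, sorted by the depleted livers (red depleted, blue hepatectomised, filled where the adjusted p was under 0.05). Filled points are 8 higher and 5 lower in depleted livers and 8 higher and 1 lower in hepatectomised livers, and Dram1 and Pmaip1 are filled in depleted livers only.

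Trp53 itself was not called in either comparison: its level was 17.9 to 21.2 CPM in control, 15.4 to 30.4 in depleted and 14.02 to 22.8 in hepatectomised livers (log2 0.13 ± 0.19 and -0.02 ± 0.20). Mdm4, the partner of MDM2 in restraining p53, gave -0.00 ± 0.14 and -0.19 ± 0.15. Of 19 regulators of p53, 3 rose (15.8%, beside 18.9% over all genes) and 1 fell (5.26%, beside 15%) in depleted livers; without depleted replicate 1, 2 or 3 the first count was 1. Cdkn2a, whose locus encodes the MDM2 inhibitor ARF and the kinase inhibitor p16, rose by 4.91 ± 0.66. Its raw counts were 0 to 6 in the controls, 46, 96, 215 and 72 in depleted replicates 1 to 4 and 1, 1 and 8 in the hepatectomised livers. Every depleted liver thus lay above all others, and counts per gene do not separate the 2 products. The difference between depleted and hepatectomised livers was called too (4.56 ± 0.87). Cop1, a ubiquitin ligase for p53, fell by 0.58 on the log2 scale (SE 0.10) in depleted livers, from 26.6 to 31.0 CPM in control to 17.2 to 21.7. Trp63 (3.77 ± 0.96), a p53 relative, and Kat5 (0.39 ± 0.14), an acetyltransferase, rose less securely: Trp63 had at most 39 counts and fell below the low-count filter without depleted replicate 1, 2 or 3, and the Kat5 call was lost in 10 of the 13 fits that left out 1 library, with depleted replicates 1 to 3 and control replicates 1 to 5 among them. In hepatectomised livers the checkpoint kinase gene Chek1 alone rose (3.22 ± 0.63, 5.26% of the list, beside 6.06%) and none of the 19 fell. The count that rose there was 2 without hepatectomised replicate 3.

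The partners that p21 binds, and its sister inhibitors, numbered 13. In depleted livers 1 rose (7.69%, beside 18.9% over all genes) and 2 fell (15.4%, beside 15%). The count that rose was 3 without depleted replicate 2, 2 without control replicate 1, 4 or 6 or hepatectomised replicate 1 or 2, and 0 without depleted replicate 4, and the count that fell was 1 without control replicate 4 or 5 or depleted replicate 1, 2 or 3. The cyclin gene Ccna2 rose (2.42 ± 0.72), and Ccnd1 (-1.71 ± 0.55) and Cdk6 (-0.74 ± 0.15), which encode the G1 cyclin D1 and its kinase, fell. Ccna2 lost its call without depleted replicate 3 or 4, and Ccnd1 without control replicate 4 or 5 or depleted replicate 1, 2 or 3 (adjusted p 0.0512 to 0.0804 in edgeR). In hepatectomised livers 4 rose (30.8%, beside 6.06%), 1 without hepatectomised replicate 2 and 2 without any 1 of the controls or of depleted replicates 1 to 3: Cdk1 (4.30 ± 0.77), Ccna2 (3.99 ± 0.82), Ccne2 (1.87 ± 0.53) and Pcna (1.28 ± 0.35). Ccna2 was not called there without hepatectomised replicate 2, and the Ccne2 call was lost in 11 of the 13 fits that left out 1 library, all but those without hepatectomised replicate 1 or 3. The Pcna call was lost in 10 of the 13, those without any control, depleted replicate 1, 2 or 3 or hepatectomised replicate 2, where its log2 fold change was as low as 0.43. Ccnd1 (-2.90 ± 0.63) and Cdk1 (-2.65 ± 0.88) were lower in depleted than in hepatectomised livers, and the second call was lost in 8 of the 13 fits, with depleted replicates 1 to 3 among the libraries left out. Cdkn1b, which encodes the sister inhibitor p27, was not called (0.29 ± 0.12 and 0.15 ± 0.13) and stood at 22.3 to 34.5 CPM in control, 29.1 to 31.6 in depleted and 25.7 to 31.8 in hepatectomised livers.

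Genes of S phase and mitosis are known to be repressed by the p53 to p21 route through the DREAM complex. Of 19 such genes, 13 rose and none fell in depleted livers (68.4%, beside 18.9% over all genes), and 17 rose and none fell in hepatectomised livers (89.5%, beside 6.06%). These counts leaned on single libraries: in depleted livers 4 rose without replicate 3, 6 without replicate 4 and 8 without control replicate 1, 3 or 5, and in hepatectomised livers 5 rose without replicate 2, 6 without control replicate 1 and 10 without control replicate 2. The medians were 1.92 and 3.97 on the log2 scale. Top2a (2.94 ± 0.75), Aurkb (2.80 ± 0.66) and the proliferation marker Mki67 (2.79 ± 0.78) led in depleted livers, and Ccnb1 (5.02 ± 1.18), Plk1 (4.74 ± 0.91) and Birc5 (4.57 ± 0.69) in hepatectomised livers, where Mki67 rose by 3.90 ± 0.92. Mki67 lost its call in depleted livers without replicate 3 (adjusted p 0.0507 in edgeR) and in hepatectomised livers without control replicate 1 or hepatectomised replicate 2, and Ccnb1 without control replicate 1 or 2 or hepatectomised replicate 2. Between the treated groups the median was -1.62, and Mybl2 alone was called, higher in depleted livers (1.77 ± 0.50), a call lost without depleted replicate 3 or hepatectomised replicate 1 or 3. Leaving out 1 library gave 0 to 7 of the 19 called lower. The summed level of the 19 genes was 20.7 to 91.0 CPM in control, 164, 92.6, 142 and 238 in depleted replicates 1 to 4 and 276, 871 and 124 in hepatectomised replicates 1 to 3. Hepatectomised replicate 3 thus had the highest Cdkn1a of its group and the lowest cell cycle sum.

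**Figure D5:**
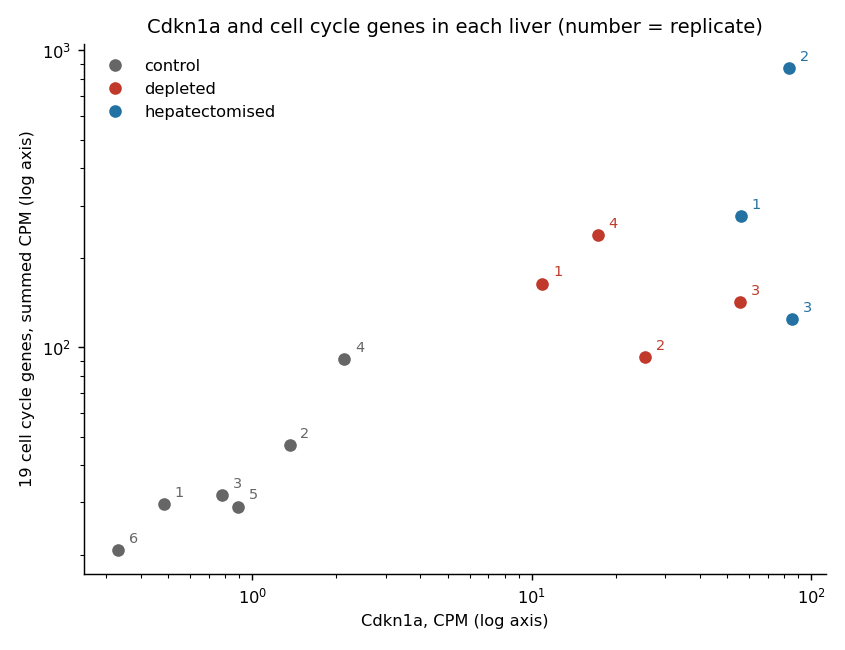
Cdkn1a against the summed level of 19 S phase and mitosis genes in each liver, both in CPM on log axes, with replicate numbers. The control with the highest Cdkn1a, replicate 4, also has the highest sum of its group (91.0 CPM), while the 7 treated livers show no such order within their groups.

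Relatives and upstream factors of the other members were read the same way. Of 14 tested BCL2 family and caspase genes, beside Bax, 5 rose in depleted livers (35.7%, beside 18.9% over all genes), among them Bcl2 (1.80 ± 0.25), an inhibitor of apoptosis, Bak1 (1.497 ± 0.17), the closest functional partner of Bax, and Bcl2l11 (0.88 ± 0.26), the BH3-only protein BIM. Bcl2l11 lost its call without depleted replicate 3 (adjusted p 0.224 in edgeR), and the count was 3 without that liver or without control replicate 3 or 5. In hepatectomised livers Bcl2l1, which encodes the survival protein BCL-XL, rose (1.38 ± 0.23; 7.14% of the list, beside 6.06%), and the BH3-only genes Bmf (-1.87 ± 0.35) and Bid (-0.84 ± 0.22) fell (14.3%, beside 2.36%). Bid lost its call without control replicate 1, 2, 5 or 6 or hepatectomised replicate 2 or 3. Between the treated groups 6 were higher in depleted livers (42.9%, beside 13.3% over all genes), led by Bcl2 (1.90 on the log2 scale), Bik, another BH3-only gene (1.78 ± 0.53), and Bid (1.48 ± 0.25), and Bcl2l1 was lower (-1.26 ± 0.26). The count of 6 was 3 without depleted replicate 1 or hepatectomised replicate 1 or 2, where Bik lost its call (adjusted p 0.0521 to 0.0773 in edgeR).

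Of 15 genes of the ATF4 pathway, which can drive Sesn2 and Gdf15 without p53, 4 rose (26.7%, beside 18.9% over all genes) and 2 fell (13.3%, beside 15%) in depleted livers, and 2 rose (13.3%, beside 6.06%) in hepatectomised livers. Without depleted replicate 3 the counts in depleted livers were 2 and 1. The count in hepatectomised livers was 4 without control replicate 4, and 1 without any 1 of the other controls, depleted replicate 1, 2 or 3 or hepatectomised replicate 2. Slc7a11, the cystine transporter gene, had 0 counts in 5 controls and 2 in the other, and 30, 6, 64 and 70 in depleted replicates 1 to 4. Its call was lost because it fell below the low-count filter without depleted replicate 1, 3 or 4. Phgdh, the first enzyme of serine synthesis (3.45 ± 0.57), and Atf3 (2.95 ± 0.60), a stress transcription factor, also rose in depleted livers. Trib3 (-1.73 ± 0.45), a pseudokinase target of ATF4, and Vldlr (-2.11 ± 0.53), a lipoprotein receptor, fell. Trib3 lost its call without depleted replicate 3 (adjusted p 0.0504 in edgeR). Vldlr overlapped widely, at 0.540 to 26.4 CPM in control and 0.227 to 8.65 in depleted livers. In hepatectomised livers the glutathione-degrading enzyme gene Chac1 (2.90 ± 0.48) and Phgdh (2.29 ± 0.64) rose, and the second call was lost in 10 of the 13 fits that left out 1 library, with hepatectomised replicates 1 and 2 among them. Between the treated groups Slc7a11 was higher in depleted livers, a call lost without depleted replicate 1, 3 or 4 or hepatectomised replicate 3, and Chac1 was lower (-2.29 ± 0.54), a call lost without hepatectomised replicate 3.

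Of 12 paralogs and receptor partners of the 10 genes, 8 were tested. Of these 2 rose in depleted livers (25%, beside 18.9% over all genes) and 1 in hepatectomised livers (12.5%, beside 6.06%). Without depleted replicate 3 the first count was 0 and the second 2. In depleted livers Eda, the ligand gene whose A2 form binds EDA2R, rose (1.18 ± 0.33; 0.960 to 3.38 CPM in control and 2.87 to 4.79 in depleted livers), and so did Ccng2 (0.77 ± 0.28), the relative of Ccng1. The Eda call was lost without depleted replicate 3 (adjusted p 0.151 in edgeR) and that of Ccng2 in 8 of the 13 fits, with depleted replicates 1 and 3 among the libraries left out. In hepatectomised livers Trp53inp2, the relative of Trp53inp1, rose (1.09 ± 0.22). Between the treated groups Eda was higher in depleted livers (1.46 ± 0.42) and Trp53inp2 lower (-0.90 ± 0.25). Both Trp53inp2 calls were lost without hepatectomised replicate 2 or 3, and the Eda call without depleted replicate 3 or any 1 of the hepatectomised livers. Counts per gene do not separate the A1 and A2 forms of Eda, so the form that binds EDA2R was not measured.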

How the data were processed

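The authors deposited 1 table of raw read counts per gene for 13 whole-liver libraries, with gene lengths in bases; per the submitters' processing notes STAR 2.7.1a, SAMtools 1.15.1, featureCounts 1.6.4 and build mm10 were used, with no roles given. The handling of strand and of multi-mapped reads is not given in the sources used here. Libraries came from 500 ng of total RNA over 2 flowcell lanes, per the labels' protocols. Symbols and overlaps came from GENCODE M21 (GRCm38), which placed 99.94% of 21818 matched IDs where the table does. The 10 genes, all other lists and the rule for named genes were chosen with earlier results of these data known. The rule names the 10 genes, the 3 largest called changes in each direction per list and comparison, Trp53, Mdm4, Mki67 and Cdkn1b, and the 5 genes nearest to Cdkn1a.

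Counts were tested with edgeR 4.0.16 (R 4.3.3, limma 3.58.1): filterByExpr, which kept 13831 genes, TMM scaling, group and sex over all 13 libraries, robust quasi-likelihood F-tests, Benjamini-Hochberg adjustment over all tested genes at 0.05, two-sided. Male and female controls were compared in a fit of the 6 controls. Standard errors are the log2 fold change divided by the square root of F. Log2 CPM used a prior count of 2. Reads carry no molecular identifiers. The script was tested on simulated data. Alternatives were no sex term, other scaling, no filter, DESeq2 1.42.0, a replicate block, 2 groups only, female livers only and leaving out each library. The promoter search used RefSeq windows of GRCm38.p6. All sample columns were used. No pair of libraries within a group agreed within counting noise, so none was merged as a duplicate deposit; this does not show that the livers are independent.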

Additional observations from a re-analysis of the deposited data

Results flagged for a closer look

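Of 20 sets of values examined for a library far from the rest (each of the 10 genes in the control and in the depleted livers), 1 stood out, and chance gives about 1 in 20. In depleted livers the level of Sesn2 in replicate 3, the male, was 22.01 CPM and the next was 11.3 CPM, so that the gap took up 0.944 of the whole range of the group. The same liver had the highest Cdkn1a, Mdm2 and Trp53inp1 of the depleted group. It also had the highest sum of cholangiocyte markers (15.7 CPM, against 4.80 to 6.27 in the other depleted livers). Sox9 alone made up 13.1 CPM of it, and no depleted liver exceeded 1.31 CPM for Krt19, 0.803 for Krt7 or 1.71 for Epcam. Its sum of monocyte and neutrophil markers was the highest too (548 CPM, against 202 to 413). The part of these cells in its values was not tested. No depleted male other than this one was profiled, so sex and individual cannot be told apart here.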

How the results depend on the processing

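Of 610 recomputed fold changes of the 10 genes, 597 kept their direction within the spread between replicates, 6 moved further and 7 changed sign; the cause was not tested. The sign changes were Sesn2 in hepatectomised against control livers (-0.058 with library size scaling, -0.093 to 0.32 with 1 library left out, lowest without hepatectomised replicate 3), Mdm2 in depleted against hepatectomised livers (0.042 with library size scaling), Phlda3 in depleted against control livers (-0.20 with the replicate block, -0.52 to 0.65 with 1 left out, lowest without depleted replicate 4), Gdf15 in the same comparison without depleted replicate 4 (-0.065 to 0.86 with 1 left out) and Trp53inp1 in depleted against hepatectomised livers without depleted replicate 3 (-0.12 to 0.98 with 1 left out). Cdkn1a in both comparisons with control and Eda2r in hepatectomised livers were called under every alternative tried. Genes differing between hepatectomised and control livers numbered 1164 (838 higher), 2192 with library size scaling (626 higher, 1566 lower), 1939 with DESeq2 and 483 to 1458 when 1 library was left out. Depleted and control livers differed in 4692 genes, 2695 among females and 2960 to 4928 with 1 library left out. With library size scaling the split was 2884 higher and 1471 lower, against 2614 and 2078. Depleted and hepatectomised livers differed in 3236 genes (1837 higher), 2105 with those groups alone and 1709 to 3850 with 1 left out, and library size scaling gave 3102 higher and 610 lower. Male and female controls differed in 96 genes, 449 with DESeq2 and 32 to 200 with 1 left out. Other p53 targets lower in hepatectomised than control livers numbered 1, 5 with library size scaling, 2 with DESeq2, 0 with 2 groups alone and 0 to 1 with 1 left out; those higher numbered 8, and 6 to 9 with 1 left out. Lower in depleted than control livers were 5, 1 among females and 2 to 10 with 1 left out, and higher were 8 to 11. Between depleted and hepatectomised livers, 4 were lower, 2 with library size scaling or with 2 groups alone and 2 to 6 with 1 left out, and higher were 4 to 8. With 1 left out, 3 to 7 of the 10 genes were called higher in hepatectomised livers and 2 to 3 in depleted livers. Lower in depleted than hepatectomised livers were 0 to 3. Of 13724 to 14099 tested genes those fits called 401 to 965, 1786 to 2782 and 658 to 1876, in that order. DESeq2 called 8 of 10 in hepatectomised livers, where 1193 of all 13831 genes were higher and 746 lower.

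Same-numbered livers were not treated as paired in the main fit. After group and sex were removed, their deviations correlated at -0.10 to 0.42 (control and depleted, 4 pairs). The values were -0.19 to 0.08 for control and hepatectomised and 0.04 to 0.27 for depleted and hepatectomised livers (3 pairs each). Mean correlations of same-numbered and of other pairs were 0.12 and -0.02, -0.05 and 0.01, and 0.16 and -0.05, in that order. So few pairs cannot exclude a pairing. With the replicate block, 632 genes differed between hepatectomised and control livers (460 of all 13831 higher). There 5 other p53 targets were higher and 0 lower, and 4 of the 10 genes were called higher. Of the other p53 targets, 7 were lower in depleted than hepatectomised livers. Between depleted and hepatectomised livers Cdkn1a, Phlda3 and Eda2r were then called lower and Sesn2 higher, where 1358 of all 13831 genes were lower and 1812 higher. The lowest control of Phlda3 and of Eda2r, at 0.120 CPM, lay little above the 3-count floor of that library, 0.0900 CPM.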

Other observations

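Within the 6 controls, which share a treatment label, each of the 10 genes was set against the summed 19 cell cycle genes (log2 scale). This relation was chosen after the values were seen. For Cdkn1a, Pearson's r was 0.924 (exact permutation p = 0.00972, Benjamini-Hochberg adjusted p = 0.0694 over 10 relations) and Spearman's rho was 0.83 (exact permutation p = 0.0583, adjusted p = 0.194). Without the 2 controls farthest from the median, replicates 4 and 2, r was 0.810 over 4 livers, and leaving out 1 control at a time gave 0.898 to 0.960. For Eda2r, r was 0.918 (exact permutation p = 0.0139, adjusted p = 0.0694). Phlda3 had the highest Spearman's rho of the 10, 0.943 (exact permutation p = 0.0167, adjusted p = 0.167), with a Pearson's r of 0.711 (exact permutation p = 0.149, adjusted p = 0.297). None of the 10 relations passed the adjustment, and the smallest p that 6 livers allow is 0.00139. Control replicate 6 had the lowest cell cycle sum (20.7 CPM) and the lowest Cdkn1a, Phlda3 and Eda2r. It was also lowest in summed Kupffer cell (50.5 CPM, others 287 to 435) and endothelial markers (63.7, others 202 to 292). The same held for stellate (188, others 330 to 541) and hepatocyte markers (63187, others 87464 to 134630). The part of these cells in the relations was not tested. The 3 controls of each sex are too few for a value within sex.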
